A study of Mus musculus with 14 samples.

Results

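Meiotic spermatocytes of Dnmt3C KO/KO mice (KO) and of wild-type littermates (WT) were compared by RNA sequencing, 4 libraries against 4 of the 14 in the series, which also holds 3 KO and 3 WT libraries of spermatogonia. All 8 libraries labelled spermatocytes were taken, with all 36888 genes and 1098 subfamilies of transposable elements (TEs) in their count table. DNMT3C is a rodent DNA methyltransferase that methylates promoters of young retrotransposons in male germ cells. The mice had a C57Bl6/J background, and the Dnmt3C allele is not restricted to a cell type by a Cre. Spermatocytes were sorted from mice older than 20 days by Hoechst staining of DNA with propidium iodide-positive cells excluded, and spermatogonia from mice aged 14 days as EpCAM-positive, B2M-negative cells. No surface marker was used in the spermatocyte sort, and the gate is described by cell size and by a 2N DNA content. Spermatocytes in prophase have replicated their DNA, so how this gate holds them was not settled, and somatic cells with unreplicated DNA could lie in it. Library totals ran from 44883293 to 47198914 counts in KO and from 47612168 to 53323651 counts in WT.

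Meiotic prophase begins with leptotene and zygotene, when SPO11 breaks the DNA and homologous chromosomes pair along the synaptonemal complex. It goes on to pachytene, when pairing is complete, the X and Y chromosomes are silenced in the sex body, and the regulators A-MYB and TCFL5 turn on genes for late meiosis and sperm. Cells that fail to pair their chromosomes are usually removed in pachytene. In bulk libraries fewer cells of a type and less RNA per cell cannot be told apart, so each value below is a level in the sorted population.

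Some libraries stood apart. Replicates 1 and 4 were much alike in both genotypes: over features with at least 50 counts, the chi-square per feature was 13.9 for the KO pair and 18 for the WT pair, against 157 to 572 for the other pairs within a genotype. They still differed by more than counting error, so each was kept as a library. That excess does not show that they came from separate animals, which was not tested. The paper's legends give fewer biological replicates of spermatocytes than there are libraries here. The p-values below treat the libraries as independent. Calls are also given with the pair summed, which left 8758 genes called in place of 12885. WT replicate 3 had 2.23% mitochondrial counts, against 0.856% to 1.04% in the other WT libraries and 3.78% to 5.41% in KO. Dnmt3c RNA did not check the genotype labels, with 52 to 57 counts in KO and 11 to 28 in WT (log2 difference 0.77, SE 0.42, edgeR adjusted p 0.124). Markers of somatic cells were higher in KO: the macrophage sum was 30.43 to 124.5 CPM against 2.927 to 6.951 in WT, the Leydig sum 56.19 to 397.3 against 13.95 to 28.32, and a stromal matrix sum 951.6 to 9149 against 113 to 232.6. Their part in the rises below was not tested.

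Of 21919 genes tested with edgeR's quasi-likelihood test, 6145 (28.0%) rose and 6740 (30.7%) fell in KO at an adjusted p under 0.01, and for 68.4% the libraries of the genotypes did not overlap. Against so broad a background, single calls said little, and the lists below were read by their direction and size. The median log2 difference of all genes was 0.11, and 0.79 when libraries were scaled by their totals, so that small falls depended on the scaling. With library totals 8076 genes rose and 4882 fell.

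Genes of the earliest germ cells were mostly higher in KO. Of 14 markers of undifferentiated spermatogonia, 8 rose, 1 fell and 5 did not pass, with a median log2 difference of 2.44. Of 10 genes of differentiating spermatogonia and meiotic entry, 6 rose and 1 fell, with a median of 2.81. Stra8, the retinoic acid target needed to enter meiosis, stood at 46.9, 132, 140 and 49.5 CPM (TMM-scaled counts relative to library size) in KO replicates 1 to 4 and at 2.53, 13.5, 26.5 and 2.02 CPM in WT (log2 difference 3.05, SE 0.81, edgeR adjusted p 0.00695). All KO values exceeded all WT values. Its partner Meiosin, listed as Gm4969, differed by 3.57 and the receptor tyrosine kinase gene Kit by 2.87. Among spermatogonial genes Zbtb16, a transcription factor of progenitors, differed by 2.83, Etv5 by 2.64 and Nanos3, an RNA-binding regulator, by 3.21, whereas Gfra1, the GDNF receptor of stem cells, was at -0.16 and did not pass.

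These lists had an exception in each. Id4, an inhibitor of basic helix-loop-helix factors used as a stem cell marker, stood at 6.17, 3.62, 5.37 and 6.14 CPM in KO and at 117, 190, 132 and 117 CPM in WT, a log2 difference of -4.70 (SE 0.28, edgeR adjusted p 2.81e-06). Dmrtb1, of the list of differentiating spermatogonia and meiotic entry, stood at 44.7, 166, 97.2 and 47.2 CPM in KO and at 1590, 611, 443 and 1490 CPM in WT (-3.54). The WT spermatogonia of the series held 23.5 CPM of Id4 and 179 CPM of Dmrtb1, against 162 and 1180 CPM in WT spermatocytes on the scale of all 14 libraries. The largest rise among entry genes was that of Ccnd2, a cyclin of dividing spermatogonia, at 124, 27.4, 32.7 and 118 CPM in KO and 2.24 to 9.03 CPM in WT (4.19). Its KO values were highest in replicates 1 and 4, as were those of Etv5 (58.2, 13.8, 18.2 and 49.2 CPM) and the Sertoli and Leydig marker sums, unlike those of Kit, Stra8 and Meiosin, where replicate 2 or 3 was highest.

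Of 15 genes of DNA replication licensing, 8 rose and 3 fell (median 1.59). Mcm2, a subunit of the replicative helicase, stood at 76.6, 221, 217 and 76.1 CPM in KO and 4.48, 23.1, 44.1 and 4.02 CPM in WT (log2 difference 2.96), while Cdc6, a loader of that helicase, overlapped between the genotypes (0.63, edgeR adjusted p 0.237). Gins1 was lower in KO (-1.68). The calls of these early lists rested on few libraries. With replicates 1 and 4 summed, 4 of 14, 2 of 10 and 5 of 15 genes rose, and without any 1 of KO replicates 2 and 3 and WT replicates 1, 2 and 4, the numbers were 3 or 4, 2, and 4 or 5. Stra8, Kit, Mcm2 and Zbtb16 missed the threshold in these settings, at edgeR adjusted p up to 0.0227, with differences of 2.48 to 3.13. Zbtb16 also missed it without KO replicate 1 or 4, and Etv5 with replicates 1 and 4 summed (2.27, adjusted p 0.0227) and without WT replicate 1 or 4. Scaling by library totals left none of the 3 licensing falls, and 1 licensing gene fell with replicates 1 and 4 summed or without KO replicate 1 or 4.

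Genes that act in early prophase divided. Of 22 genes of break formation and strand exchange, 9 rose, 4 fell and 9 did not pass (median 0.42). Prdm9, the histone methyltransferase that places recombination hotspots, stood at 48.9, 61.0, 49.7 and 56.0 CPM in KO and at 2.14, 5.90, 11.9 and 1.28 CPM in WT (log2 difference 3.34, SE 0.62, edgeR adjusted p 0.000934). Dmc1, the meiotic recombinase, stood at 100, 99.6, 107 and 114 CPM in KO and at 5.68, 10.1, 36.9 and 4.58 CPM in WT (2.88). For each gene the KO libraries lay close together and above all WT libraries, with WT replicate 3 the nearest. Mei4 (2.84) and Rec114 (2.08), which act with SPO11 in making breaks, also rose.

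Spo11 itself, the enzyme that makes the breaks, went the other way, with 28.3, 18, 32.0 and 36.3 CPM in KO and 134, 114, 103 and 126 CPM in WT (log2 difference -2.06, SE 0.24, edgeR adjusted p 6.88e-05). Psmc3ip, which encodes HOP2, a partner of DMC1 in strand invasion, fell further (-2.90), as did Hsf2bp, a recombination factor that binds BRCA2 (-2.31). No KO library reached the lowest WT library for these 3 genes. With replicates 1 and 4 summed, the list had 4 falls and 4 rises in place of 9. It had 5 rises without KO replicate 2 or 3 or WT replicate 4.

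Genes of the synaptonemal complex and chromosome axis did not share a direction. Of 13 genes of the chromosome axis, cohesin and synapsis, 2 rose, 4 fell and 7 did not pass (median -0.06). Sycp3, the axial element protein, stood at 426, 261, 618 and 488 CPM in KO and at 437, 374, 605 and 396 CPM in WT (log2 difference -0.01, SE 0.28, edgeR adjusted p 0.966). Sycp1, the transverse filament that joins the axes, stood at 661, 355, 615 and 771 CPM in KO and at 404, 441, 762 and 390 CPM in WT (0.27, SE 0.30, adjusted p 0.439). The genotypes overlapped for both genes, but the sum over the list was 2076 to 2920 CPM in KO and 3624 to 4042 CPM in WT. Syce1, a central element protein, fell (-3.08), as did the meiotic cohesin subunit gene Stag3 (-1.57), whereas the cohesin kleisin gene Rad21l rose (3.79). With library totals 2 genes of the list fell and Sycp3 was at 0.63.

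Of 7 genes that attach telomeres to the nuclear envelope, none rose and 5 fell (median -1.46). Majin, of the membrane-bound TERB1-TERB2-MAJIN complex, stood at 12.6, 15.8, 12.1 and 11.7 CPM in KO and at 36.0, 50.7, 44.5 and 33.1 CPM in WT (log2 difference -1.66). Spdya, the activator of CDK2 at telomeres, differed by -2.29 and Ccdc155, the nuclear envelope protein KASH5, by -2.53. With library totals 3 of the 7 fell, and Majin missed the threshold at -0.98 (edgeR adjusted p 0.0187). Of 14 genes of crossover formation, 2 rose, 4 fell and 8 did not pass (median -0.04). Msh5, which stabilises recombination intermediates, was at 0.69 (edgeR adjusted p 0.0184) and Ccnb1ip1, the HEI10 ligase that marks crossovers, at -0.88 (adjusted p 0.0289). The largest rise was that of the X-linked gene Tex11 (3.13), whose call was lost without WT replicate 2 (3.04, adjusted p 0.0135), and the largest fall that of Prr19 (-2.81). Prr19 and Cntd1 (-2.26) act in the final designation of crossovers, as does Mlh3 (-2.13). With library totals 4 of these genes rose, and 1 rose with replicates 1 and 4 summed or without KO replicate 4 or WT replicate 1, 2 or 4.

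**Figure D1:**
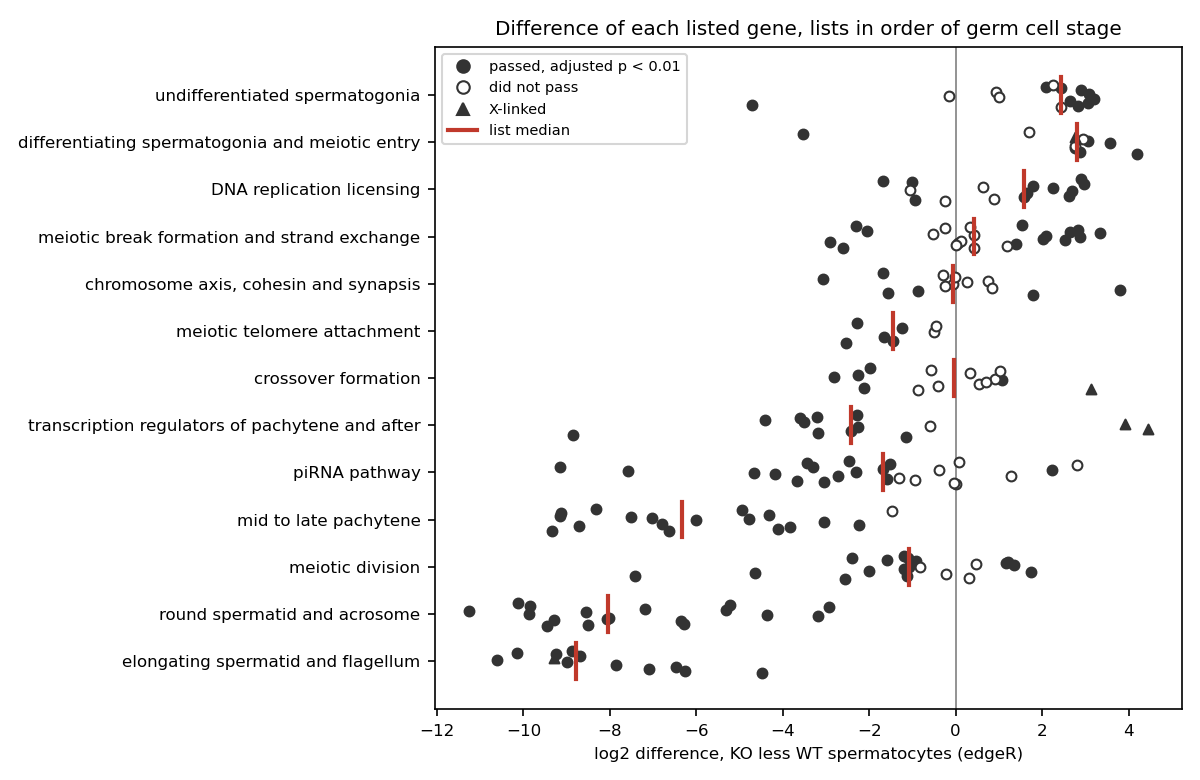
Log2 difference between KO and WT spermatocytes (x axis) of each tested gene of 13 lists in order of germ cell stage (y axis); filled points passed edgeR's test, triangles are X-linked and red bars are medians. The median lies at 2.44 for undifferentiated spermatogonia, near 0 for the axis and synapsis list and at -6.32 for mid to late pachytene.

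Most regulators of pachytene fell. Of 13 transcription regulators of pachytene and later stages, 10 fell, 2 rose and 1 did not pass (median -2.42). The gene that did not pass was Mybl1, which encodes A-MYB, the regulator that starts the pachytene programme. Mybl1 stood at 147, 55.5, 117 and 175 CPM in KO and at 199, 172, 143 and 231 CPM in WT, with overlap (log2 difference -0.59, SE 0.32, edgeR adjusted p 0.125), and its difference was 0.11 with library totals. Tcfl5, a helix-loop-helix factor that acts with A-MYB, stood at 47.6, 63.9, 74.2 and 53.4 CPM in KO and at 893, 683, 440 and 864 CPM in WT, a fold of 12.1 lower (log2 difference -3.59, SE 0.28, adjusted p 7.2e-06). Crem, the activator of spermatid genes (-3.50), Rfx2, a regulator of ciliary and spermatid genes (-4.40), and Sox30 (-2.29) also fell. The testis POU factor gene Pou5f2 fell most (-8.85). The 2 rises, Scml2 (4.45) and Taf7l (3.91), are X-linked. The count of 10 falls and 2 rises held under every alternative within 1.5 times.

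Of 18 markers of mid to late pachytene, 17 fell and none rose (median -6.32), and these numbers held within 1.5 times under every alternative. Ldhc, the lactate dehydrogenase of germ cells, stood at 16.8, 5.83, 13.6 and 21.7 CPM in KO and at 6080, 4320, 2540 and 5750 CPM in WT (log2 difference -8.33, SE 0.55, edgeR adjusted p 3.59e-06). Hspa2, the meiotic chaperone that helps CDK1 act at the end of prophase, stood at 173, 98.6, 157 and 193 CPM in KO and at 3500, 3160, 2210 and 3440 CPM in WT (-4.31). The sperm surface protein gene Adam2 (-7.52), the chaperone gene Clgn (-6.01) and the acrosin gene Acr (-9.34) fell as well. For each of the 5 genes the lowest WT library lay above the highest KO library. Calr3, a chaperone of the endoplasmic reticulum, was the member that did not pass (-1.47).

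Of 23 genes of the piRNA pathway, 14 fell, 1 rose and 8 did not pass (median -1.69), with 3 rises without WT replicate 3. Piwil1 (MIWI), which binds pachytene piRNAs, stood at 11.8, 8.29, 16.2 and 14 CPM in KO and at 2430, 3070, 1690 and 2380 CPM in WT (log2 difference -7.57, SE 0.35, edgeR adjusted p 2.53e-06). Tdrd6, of the chromatoid body, was at 0.687 to 6.25 CPM in KO and 690 to 2830 CPM in WT (-9.15). Piwil2 (MILI), which is expressed from spermatogonia on, stood at 343, 245, 478 and 396 CPM in KO and at 504, 935, 805 and 532 CPM in WT (-0.93, adjusted p 0.0129). It did not pass, although no KO library reached a WT library. Mov10l1 (0.07) and Asz1 (0.00), which act in making piRNAs before and during meiosis, were level. Piwil4 (MIWI2), of fetal germ cells, was at 2.81 and did not pass (adjusted p 0.0218). Btbd18, a factor needed to transcribe pachytene piRNA genes, rose (2.23). That call was lost with replicates 1 and 4 summed (2.03, adjusted p 0.0171) and without KO replicate 2 or 3 or WT replicate 1, 2 or 4, at 1.90 to 2.22.

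**Figure D2:**
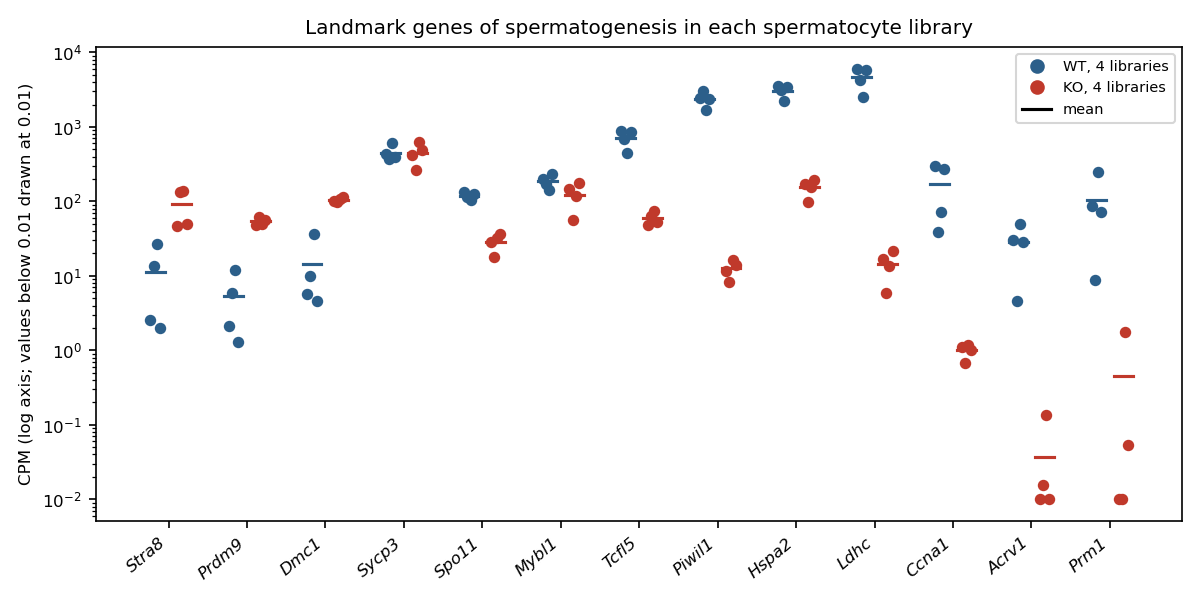
CPM on a log axis of 13 landmark genes, from meiotic entry (left) to spermatids (right), in the 4 WT (blue) and 4 KO (red) libraries, with bars at the means. Sycp3 and Mybl1 overlap between genotypes, whereas Tcfl5, Piwil1, Hspa2 and Ldhc are lower in each KO library.

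The genes below, 3 that fell and an X-linked gene that rose, were picked by hand, so letters that they share are not a result. Their promoters are shown for those letters. They are from RefSeq (GRCm38.p6), 250 bases before to 50 after the start, written 5′ to 3′ along the gene, with capitals for CAGTTG, the core bound by MYB factors (CAACTG on the other strand), and for CACGTG, the E-box bound by many helix-loop-helix factors. The Piwil1 window lies at chr5:128735996-128736295 (+ strand), that of Tcfl5 at chr2:180642642-180642941 (- strand), that of Hspa2 at chr12:76404120-76404419 (+ strand) and that of Ccnb3 at chrX:7041570-7041869 (- strand).
Piwil1: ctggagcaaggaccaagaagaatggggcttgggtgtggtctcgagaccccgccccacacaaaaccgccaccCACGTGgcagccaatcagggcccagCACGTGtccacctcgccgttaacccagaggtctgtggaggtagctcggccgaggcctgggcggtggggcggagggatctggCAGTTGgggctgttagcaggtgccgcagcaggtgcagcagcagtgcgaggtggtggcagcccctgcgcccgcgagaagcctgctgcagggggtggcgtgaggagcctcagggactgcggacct
Tcfl5: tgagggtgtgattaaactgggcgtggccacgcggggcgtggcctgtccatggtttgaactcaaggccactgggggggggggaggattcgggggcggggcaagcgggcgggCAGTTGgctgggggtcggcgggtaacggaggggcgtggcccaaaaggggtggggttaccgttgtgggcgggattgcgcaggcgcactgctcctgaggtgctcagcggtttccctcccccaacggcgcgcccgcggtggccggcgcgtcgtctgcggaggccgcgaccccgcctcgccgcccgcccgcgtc
Hspa2: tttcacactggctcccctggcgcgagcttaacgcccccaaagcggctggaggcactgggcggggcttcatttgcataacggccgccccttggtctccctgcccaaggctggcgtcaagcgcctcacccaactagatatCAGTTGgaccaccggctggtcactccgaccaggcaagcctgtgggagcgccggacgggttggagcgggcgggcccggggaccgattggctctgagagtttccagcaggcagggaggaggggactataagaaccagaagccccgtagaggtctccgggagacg
Ccnb3: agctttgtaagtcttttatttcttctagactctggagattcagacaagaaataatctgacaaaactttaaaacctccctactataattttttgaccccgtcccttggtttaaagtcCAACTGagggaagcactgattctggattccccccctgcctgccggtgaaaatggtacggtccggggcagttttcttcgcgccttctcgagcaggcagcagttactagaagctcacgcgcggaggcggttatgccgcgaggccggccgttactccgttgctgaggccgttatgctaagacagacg
The Piwil1 window held E-boxes at -179 and -154 and the MYB core at -73, counted from the start. The core began at -140 in Tcfl5, at -112 in Hspa2 and at -134, on the other strand, in Ccnb3.

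Across 12618 tested protein-coding genes with a promoter in that table, CAGTTG was found on either strand in 13.2% of the 3780 that fell, 9.87% of the 4134 that rose and 10.5% of the 4704 that did not pass, and in 13.6% of all 27025 promoters. GTTGCCATG, a letter string of RFX sites, was in 1.53%, 0.242% and 0.51% of these groups and in 0.759% of all. TGACGTCA, the cAMP response element, was in 3.1%, 2.42% and 3.34%, and in 1.88% of all. GCGCATGCG, the core bound by NRF1, was in 3.99%, 2.39% and 3.53%, and in 1.81% of all. CACGTG was in 8.73%, 9.68% and 10.3%, and in 7.24% of all, and in 11.1% of the 440 X-linked genes that rose. By list, CACGTG was in 6 of 17 promoters of the piRNA pathway (35.3%), 1 of 12 of mid to late pachytene (8.33%) and 2 of 27 of spermatids (7.41%). CAGTTG was in 2 of 17 (11.8%), 1 of 12 (8.33%) and 0 of 27 of these, and in 15.9% of the X-linked genes that rose. No motif contains another. These shares are descriptions of letters in a window and were not tested.

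Genes of the meiotic divisions moved less as a list than those of spermatids. Of 20 genes of the meiotic division, 12 fell and 4 rose (median -1.09). Ccna1, the cyclin A of male meiosis, stood at 1.12, 0.687, 1.18 and 1.01 CPM in KO and at 298, 38.4, 72.9 and 270 CPM in WT (log2 difference -7.41, SE 0.74, edgeR adjusted p 2.66e-05). The phosphatase gene Cdc25c (1.35) and the kinase gene Mastl (1.75), which act at entry into division, rose, but Cdc25c missed the threshold with replicates 1 and 4 summed and without WT replicate 1 or 4, at edgeR adjusted p of 0.0244, 0.0115 and 0.0138. With library totals 6 fell and 5 rose, and with replicates 1 and 4 summed 7 fell and 1 rose. Without KO replicate 1 or 4 or WT replicate 1 or 4, 9 or 10 fell and 1 or 2 rose.

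All 18 genes of round spermatids and the acrosome and all 12 of elongating spermatids fell, with medians of -8.04 and -8.79. In KO, 3 of the 18 and 0 of the 12 were at or under the floor of 3 counts in every library. Setting those to their bound left the round spermatid median unchanged and could not move the other. The elongating spermatid median was -10.14 without KO replicate 3 and -7.95 without WT replicate 3. Acrv1, an acrosomal protein, stood at 0, 0.0156, 0.134 and 0 CPM in KO and at 30.2, 4.65, 49.7 and 28.8 CPM in WT. Prm1, the protamine that packs sperm DNA, stood at 0, 0, 1.75 and 0.0544 CPM in KO and at 86.6, 8.69, 250 and 72.2 CPM in WT. Spaca1, an acrosomal membrane protein, was at 1.80 to 4.31 CPM in KO (-3.18), and the transition protein gene Tnp1 differed by -7.10. WT replicate 2 was the lowest WT library for each of these 4 genes. Actl7a, an actin-like protein of the acrosome, was at least 689-fold lower and the mitochondrial capsule gene Smcp differed by -10.62.

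Outside the lists, the 8 largest falls among protein-coding genes with a mean of at least 20 CPM in WT and no overlap included several spermatid genes. Cabs1, a calcium-binding protein of spermatids, was at 0 in all KO libraries and at 17.2, 2.08, 53.2 and 17.2 CPM in WT, at least 413-fold lower. The fibrous sheath gene Fscb was at least 468-fold lower, the actin-related genes Actrt2 and Actl11 at least 586-fold and 527-fold, Tmco5 at least 568-fold, Prr27 at least 369-fold, Prr30 at least 819-fold and the predicted gene Gm8906 at least 447-fold. None had more than 3 counts in any KO library. Noncoding genes followed: of 1146 lincRNA genes 655 fell and 134 rose (median -2.90), and of 888 antisense genes 438 fell and 97 rose (median -1.53), whereas of 16257 protein-coding genes 4798 fell and 5310 rose (median 0.29).

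The X and Y chromosomes showed the largest shift of any chromosome. Of 675 X-linked protein-coding genes tested, 519 (76.9%) rose and 49 fell, with a median log2 difference of 3.13. Over the 15543 autosomal genes tested, 30.6% rose and 30.5% fell, and single autosomes had medians of -0.04 to 0.40. X-linked genes together held 18020 to 26930 CPM in KO libraries and 1676 to 1926 CPM in WT, except for WT replicate 3 with 5627 CPM. The median difference between X and autosomal genes was 2.94, from 2.61 to 3.55 over all alternatives, with the highest value when WT replicate 3 was left out. The 49 falls became 87 to 94 without any 1 KO library or without WT replicate 2. They became 107 with no filter beyond 1 count in total and 113 with DESeq2. In each of these settings more genes were tested. Of 20 Y-linked genes, 15 rose and 3 fell (median 4.04). The X-linked genes that rose included the matrix genes Bgn (5.62), Col4a6 (5.56) and Col4a5 (5.37), which were named after their values were seen.

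**Figure D3:**
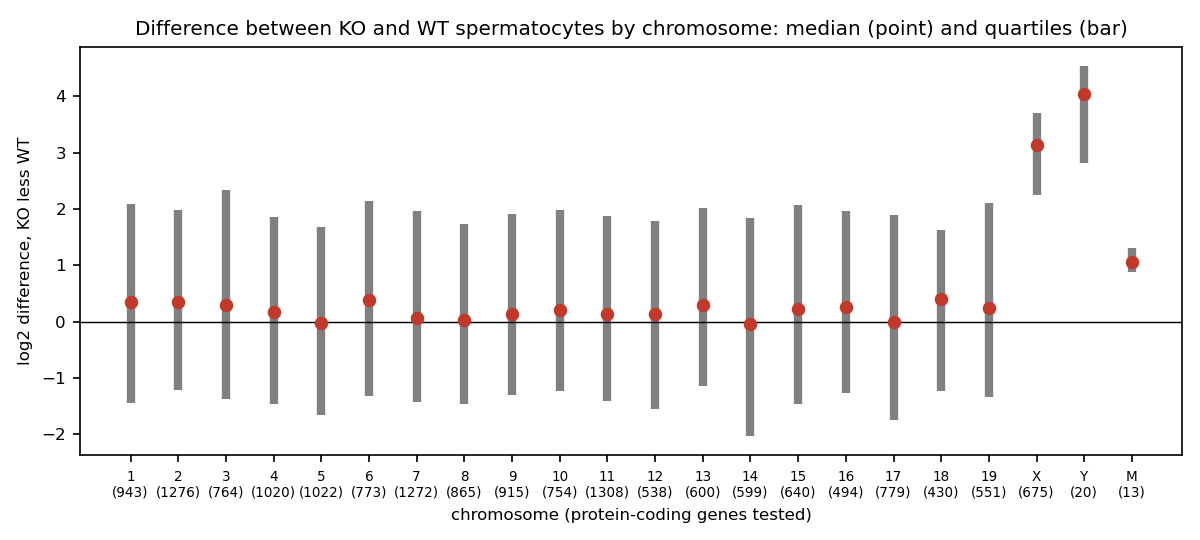
Log2 difference between KO and WT spermatocytes (y axis) by chromosome, with the number of protein-coding genes tested in brackets; points are medians and bars span the quartiles. Autosomal medians lie between -0.04 and 0.40, and those of X and Y at 3.13 and 4.04.

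Zfy1 and Zfy2, Y-linked zinc finger genes whose expression in pachytene is toxic to the cell, were both higher. Zfy1 stood at 83.7, 32.4, 80.6 and 101 CPM in KO and at 1.54, 1.28, 6.77 and 1.87 CPM in WT (log2 difference 4.69, SE 0.64, edgeR adjusted p 0.000152). Zfy2 stood at 110, 38.5, 110 and 132 CPM in KO and at 1.73, 0.904, 7.42 and 1.37 CPM in WT (5.09, SE 0.74, adjusted p 0.000232). KO replicate 2 was the lowest KO library for both, and still above each WT library. Of the 10 Y genes tested from the fixed list, 9 rose, up to 6.34 for Rbmy, a multicopy RNA-binding gene, and Ssty2, a multicopy gene of spermatids, was at 0 in KO, at least 17.8-fold lower.

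On the X, Ccnb3, a cyclin of early prophase, stood at 494, 191, 515 and 608 CPM in KO and at 0.824, 3.34, 15.5 and 1.56 CPM in WT (log2 difference 6.40, SE 0.96, edgeR adjusted p 0.00027). Scml2, a Polycomb-related germ cell regulator, stood at 667, 362, 689 and 768 CPM in KO and at 9.86, 19.1, 75.1 and 9.19 CPM in WT. Of 11 X-linked genes known from spermatogonia, a list drawn up after the chromosome values had been seen, 10 rose and Fthl17a fell (-2.75). The 49 X genes that fell included Akap4, the main fibrous sheath protein of the sperm tail (-9.30), and Cylc1, of the sperm head (-8.0). They were chosen after their values were seen.

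Genes that moved from the X to an autosome as retrogene copies, and which stand in for their X-linked parents in meiosis, moved against the parents. All 7 X-linked parents rose (median 3.72), and of the 7 copies 6 fell and 1 did not pass (median -3.15). Pgk1, the X-linked phosphoglycerate kinase, stood at 45.6, 32.3, 33.6 and 47.3 CPM in KO and at 2.86, 5.07, 7.78 and 2.34 CPM in WT (log2 difference 3.13). Its copy Pgk2 stood at 0.596, 0.0156, 0.453 and 0.67 CPM in KO and at 369, 75.6, 170 and 356 CPM in WT (-9.13, edgeR adjusted p 2.87e-05). Rpl10, a ribosomal protein gene, differed by 3.73 and its copy Rpl10l by -3.15, and the splicing factor gene Rbmx differed by 4.64.

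**Figure D4:**
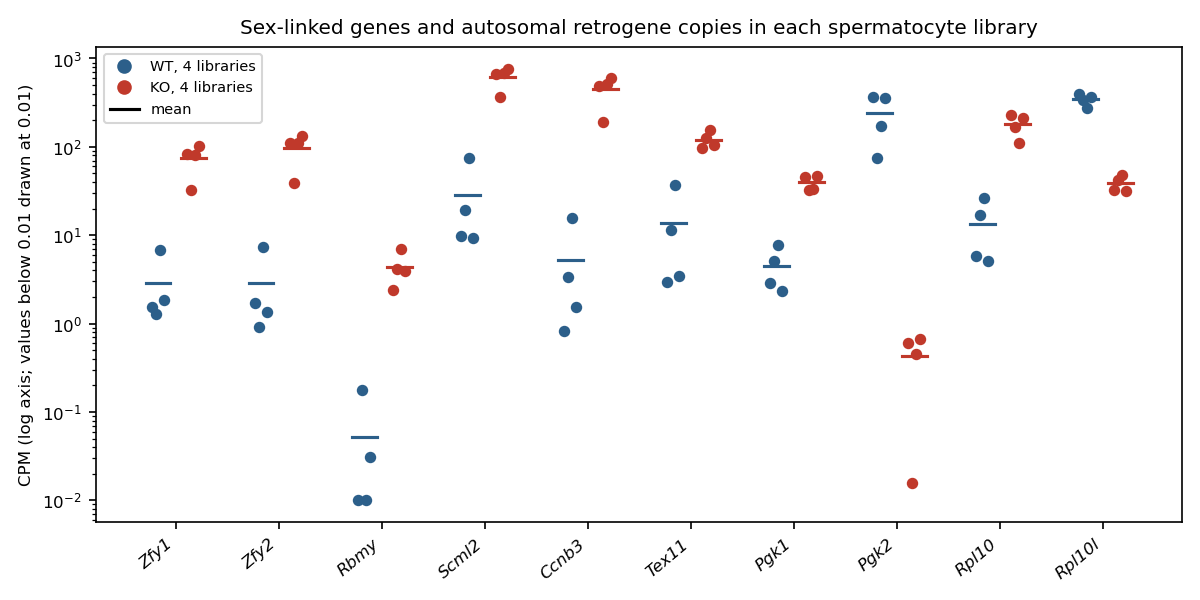
CPM on a log axis of Y-linked (Zfy1, Zfy2, Rbmy), X-linked (Scml2, Ccnb3, Tex11, Pgk1, Rpl10) and autosomal retrogene (Pgk2, Rpl10l) genes in the 4 WT (blue) and 4 KO (red) libraries, with bars at the means. Each KO library lies above each WT library for the sex-linked genes and below for the retrogene copies.

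Genes of DNA damage signalling and of sex chromosome silencing did not share a direction. Of 17 genes, 6 rose, 4 fell and 7 did not pass (median 0.06). Atr, the kinase that spreads silencing over the sex chromosomes, stood at 382, 257, 355 and 423 CPM in KO and at 1070, 1280, 923 and 1480 CPM in WT (log2 difference -1.75, SE 0.23, edgeR adjusted p 0.000144). Mdc1, the adaptor that carries the H2AX signal along chromatin, stood at 436, 289, 396 and 496 CPM in KO and at 889, 1290, 842 and 947 CPM in WT (-1.30). The sister kinase gene Atm rose (2.98), as did the checkpoint kinase genes Chek2 (2.18) and Chek1 (2.11). With library totals 8 genes rose and only Atr fell, Mdc1 missing the threshold at -0.62 (adjusted p 0.0225). Without WT replicate 2 the falls numbered 2.

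Of 17 p53 targets and cell death genes, 10 rose and 1 fell (median 1.27). Cdkn1a, the p21 inhibitor of the cell cycle, stood at 71.3, 9.23, 13.4 and 60.9 CPM in KO and at 2.17, 1.93, 4.87 and 2.15 CPM in WT (log2 difference 3.79, SE 0.71, edgeR adjusted p 0.000983). The death receptor genes Eda2r (5.63, X-linked) and Fas (4.72) rose, as did Bax (2.43) and Bbc3 (2.58), which open the mitochondrial death pathway. Mdm2, the ligase that degrades p53 and itself a p53 target, fell (-1.34). Summed over the list, levels were 514 to 655 CPM in KO and 459 to 502 CPM in WT. Cdkn1a and Eda2r were highest in KO replicates 1 and 4, which also held the most Leydig cell marker counts.

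Of 16 genes of the interferon response and of nucleic acid sensing, 13 rose and none fell (median 3.43), and none of the alternatives moved this count by more than 1.5 times. The levels were low. Isg15, a ubiquitin-like interferon target, stood at 1.24, 1.31, 0.386 and 0.852 CPM in KO and at 0.11, 0.0502, 0.0202 and 0 CPM in WT (log2 difference 4.33, SE 0.74, edgeR adjusted p 0.000552). Ifih1 (MDA5), a sensor of double-stranded RNA, stood at 9.5, 3.41, 4.37 and 10.1 CPM in KO and at 0.741, 0.653, 1.07 and 0.654 CPM in WT (3.13). Ifit1 was at 0.252 to 1.83 CPM in KO and at or under the floor of 3 counts in WT, at least 12.2-fold higher. Ddx58 (RIG-I), the other main RNA sensor, overlapped between genotypes (0.21, adjusted p 0.746). The list summed to 66.6 to 146 CPM in KO and to 35.28 to 37.99 CPM in WT.

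Markers of somatic testis cells moved with these lists. All 6 macrophage and all 6 Leydig cell markers rose, including the steroid enzyme genes Cyp17a1 (3.15) and Hsd3b6 (4.66). But 2 of 6 Leydig markers passed with replicates 1 and 4 summed, and 2 of 6 with the replicate number as a block. Of 4 peritubular markers 3 rose (sum 13.5 to 128 CPM against 2.52 to 7.58), led by the muscle filament gene Des (5.50), with 1 passing when replicates 1 and 4 were summed or when WT replicate 1, 3 or 4 was left out. Of 4 endothelial markers 2 rose (sum 16.8 to 126 CPM against 7.42 to 8.64), led by the junction gene Cdh5 (4.53), while Pecam1 overlapped (1.90, edgeR adjusted p 0.0721). Vwf, the clotting factor of endothelial cells, was at -1.22 (adjusted p 0.0659), and without KO replicate 2 an endothelial marker was called lower. Of 8 Sertoli cell markers only Gata4 passed (2.90). Its call was lost with replicates 1 and 4 summed and without KO replicate 1 or 4 or WT replicate 1, 2 or 4. Without KO replicate 3 or WT replicate 3, 4 or 5 markers passed. With library totals 4 passed, with DESeq2 5, at an adjusted p under 0.05 6, and with the replicate number as a block none. No defining marker of macrophages, Leydig or Sertoli cells was at 0 in KO. Neither of the 2 erythroid genes tested passed. KO replicate 3 was the lowest KO library in the macrophage, peritubular, endothelial and interferon sums.

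Outside the lists, the 8 largest rises among protein-coding genes with a mean of at least 20 CPM in KO and no overlap included extracellular matrix genes. Col1a1, of type I collagen, stood at 1220, 1410, 89.2 and 1020 CPM in KO and at 11.7, 10.6, 10.8 and 9.99 CPM in WT (log2 difference 6.44, SE 0.75, edgeR adjusted p 6.75e-05). Col3a1, of type III collagen, stood at 1390, 2140, 121 and 1270 CPM in KO and at 11.6 to 16.7 CPM in WT (6.47). Replicate 3 was far the lowest KO library for both and still above each WT library. The collagen receptor gene Ddr2 (6.75), the growth factor gene Ptn (6.85), Ms4a4d (6.37) and the X-linked glutamate receptor gene Gria3 (6.37) were also lowest in replicate 3, but were highest in replicate 1.

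Sntb1, which encodes a syntrophin of membrane scaffolds, differed from these. It stood at 28.6, 12.9, 24.3 and 32.3 CPM in KO and at 0, 0.0502, 0 and 0 CPM in WT, at least 263-fold higher, and replicate 2 was its lowest KO library. In spermatogonia it was at 7.76 CPM in KO and 0.251 CPM in WT. The gene lies at chr15:55636388-55906949 on GRCm38.

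**Figure D5:**
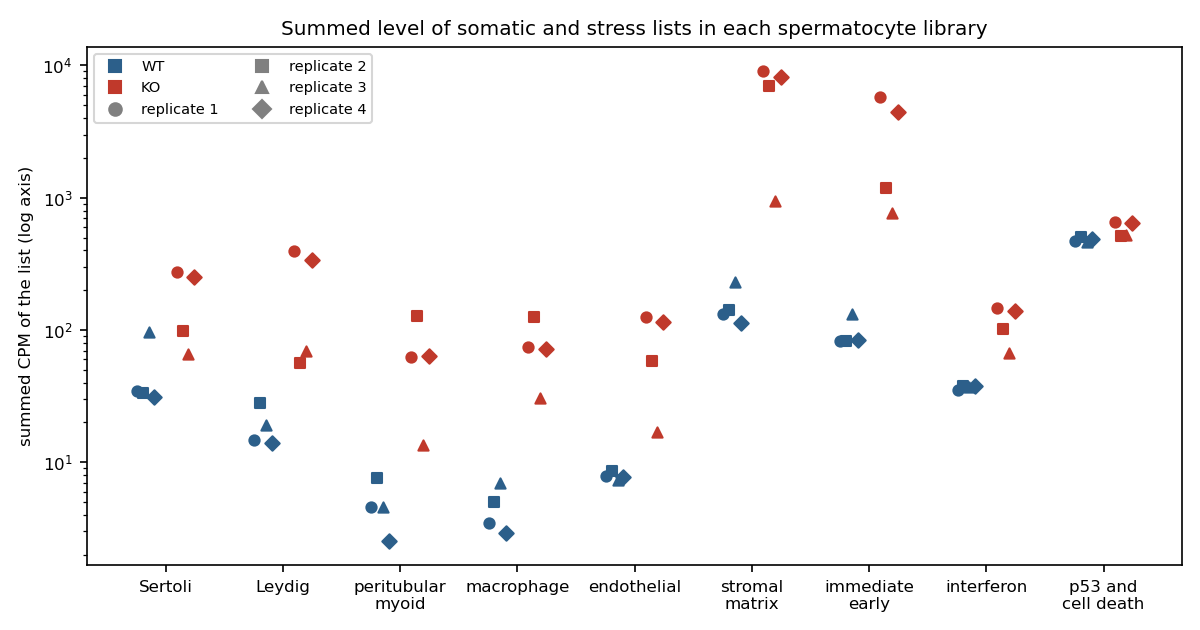
Summed CPM (log axis) of somatic cell, stromal matrix, immediate early, interferon and p53 lists in each library, WT in blue and KO in red, with a symbol for each replicate number. KO libraries lie above WT libraries in the macrophage, Leydig, stromal and interferon sums, and less so in the p53 sum.

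KO spermatocytes were set against KO spermatogonia in a fit over all 14 libraries. Of 24340 genes tested, 733 (3.01%) were higher and 9 (0.0370%) lower in spermatocytes at an edgeR adjusted p under 0.01. Stage, age and sort differed together here and cannot be told apart. Of 155 genes on the lists of prophase, pachytene and later stages, 6 (3.87%) passed, a share near that of all genes. They were the HORMA-domain axis gene Hormad1 (log2 difference 1.54), the axis gene Sycp2 (1.20), Cntd1 (2.11), the histone deacetylase partner gene Kctd19 (3.01), the testis bromodomain gene Brdt (2.13) and Adam2 (3.47). All were higher in spermatocytes, and they were named after their values were seen. Some somatic markers moved with this comparison too: all 6 macrophage markers (log2 differences 3.19 to 7.53) and 3 of 6 Leydig cell markers (6.15 to 7.02) were higher in KO spermatocytes. So were 1 of 4 peritubular and 1 of 4 endothelial markers, whereas none of 8 Sertoli cell markers passed (median -0.61). The part of these cells in the result was not tested. Trp63, which encodes a p53 relative, was also higher (3.10). Brdt rose from 63.8 to 279 CPM, against a fall of 1.16 between WT and KO spermatocytes on the log2 scale.

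Several landmarks missed the threshold in that comparison but lay apart. Sycp3 was at 510 ± 166 CPM in KO spermatocytes and 211 ± 60.4 in KO spermatogonia (SD, n = 4 and 3, edgeR adjusted p 0.0164), and Mybl1 at 141 ± 57.6 and 41.7 ± 18.9 (adjusted p 0.0164). Zfy2 was at 111 ± 46.0 CPM in KO spermatocytes and 12.9 ± 4.35 in KO spermatogonia (adjusted p 0.0153). By contrast Piwil1 was at 14.3 ± 3.74 and 11.9 ± 1.22 CPM (adjusted p 0.792) and Tcfl5 at 68.1 ± 13.2 and 87.3 ± 6.51 (adjusted p 0.375). WT spermatocytes had 2770 CPM of Piwil1 and 827 of Tcfl5. Of the 18 markers of mid to late pachytene, only Adam2 passed, at 5.58 CPM in KO spermatocytes, 0.502 in KO spermatogonia and 1030 in WT spermatocytes. Over 646 X-linked genes in both tables, mean levels summed to 26200 CPM in KO spermatocytes and 22500 in KO spermatogonia, and to 3120 CPM in WT spermatocytes and 20200 in WT spermatogonia. Of these genes 22 passed between KO spermatocytes and KO spermatogonia, all higher, with a median difference of 0.24.

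The number of calls in this comparison depended on single libraries. It was 742 in all, 112 to 216 without KO spermatogonia replicate 1, 2 or 3, and 389 and 379 without KO spermatocyte replicate 1 or 4. Without any 1 of the 3 KO spermatogonia libraries none of the 6 genes named above, nor Trp63, passed. Hormad1, Sycp2 and Cntd1 also missed the threshold without KO spermatocyte replicate 1, 3 or 4, Kctd19 without KO spermatocyte replicate 4, and Hormad1 and Sycp2 with library totals. Sycp2 missed it without WT spermatocyte replicate 1, 2 or 4 or any 1 of the WT spermatogonia libraries as well, and Hormad1 without WT spermatocyte replicate 2 or WT spermatogonia replicate 1. The call of Adam2 was also lost without KO or WT spermatocyte replicate 1 or 4, KO spermatocyte replicate 3, WT spermatocyte replicate 2 or WT spermatogonia replicate 1. Of the somatic markers Lyz2, Cd68 and Cyp17a1 lost their calls without any 1 KO spermatogonia library, Adgre1 without replicate 2 or 3, and Cyp11a1 and Insl3 without replicate 1 or 3, while Csf1r, C1qa and Cd74 passed in each setting.

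Of 929 TE subfamilies tested, 109 (11.7%) rose and 130 (14%) fell in KO spermatocytes, and 255 rose and 71 fell with library totals. The share of counts from L1 elements was 4.32%, 2.15%, 4.33% and 4.84% in KO and 0.357%, 0.365%, 0.582% and 0.348% in WT. L1Md_T, a young L1 subfamily, stood at 15400, 6190, 13200 and 17900 CPM in KO and at 227, 177, 394 and 225 CPM in WT (log2 difference 5.69, SE 0.45, edgeR adjusted p 7.19e-06). KO replicate 2 was the lowest KO library, as it was for Zfy1, Zfy2, Ccnb3, Sycp1 and Mybl1, and replicates 1 and 4 were the highest or near it. Against KO spermatogonia, L1Md_T was higher in KO spermatocytes by 2.04 (adjusted p 0.00532) and L1Md_A by 2.78 (adjusted p 0.00122). The call of L1Md_T in that comparison was lost with library totals (1.93, adjusted p 0.0123) and without KO spermatocyte replicate 1 or 4 or any 1 of the KO spermatogonia libraries, and that of L1Md_A without KO spermatogonia replicate 1 or 3.

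Endogenous retroviruses of the ERVK family moved in both directions, with 44 subfamilies that rose and 43 that fell of 268. Across all TE subfamilies 109 rose and 130 fell of 929, so these counts alone do not set ERVK apart. The balance across all TE subfamilies also depended on the scaling, with 255 that rose and 71 that fell with library totals. IAPEz-int, the body of intracisternal A particles, stood at 1540, 946, 2250 and 1710 CPM in KO and at 117, 71.8, 190 and 108 CPM in WT (log2 difference 3.73), and was highest in replicate 3, unlike L1. RLTR10B2, an LTR subfamily, stood at 389, 125, 335 and 451 CPM in KO and at 7.71, 8.49, 40.1 and 6.23 CPM in WT (4.37, edgeR adjusted p 0.0004). RLTRETN_Mm, the LTR of ETn elements, was lower in KO (-1.25), and that call was lost with library totals, at -0.55 (adjusted p 0.102), and with replicates 1 and 4 summed. MERVL-int, of the totipotency-linked MERVL element, differed by 1.38 and its LTR MT2_Mm by 1.12, which did not pass (adjusted p 0.0111). MT2_Mm passed with DESeq2, with library totals and without WT replicate 3, at 1.48 (edgeR adjusted p 0.000874), and the call of MERVL-int was lost with replicates 1 and 4 summed (1.26). B2_Mm1a, a SINE, was highest in KO replicate 2, with 2370 CPM, and lowest in replicate 4, with 1030 CPM (1.95).

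Of 127 L1 subfamilies 25 rose and 6 fell, of 101 ERV1 subfamilies 12 rose and 31 fell, and of 92 ERVL-MaLR subfamilies 7 rose and 20 fell. The TE counts were sensitive to the libraries used: 116 subfamilies in place of 239 passed with replicates 1 and 4 summed, 38 of them higher, and 154 passed without WT replicate 1, 46 of them higher. Near-identical young copies share reads, so related subfamilies are not independent.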

How the data were processed

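Poly(A) RNA was sequenced as stranded paired-end libraries from sorted cells of littermates. The authors trimmed reads with cutadapt 4.0, aligned them to GRCm38 with STAR 2.7.3a and deposited raw counts per gene and TE subfamily, which were used here. Columns with the authors' own fold changes and p-values, and a TPM table, were not used. Counts were scaled by TMM over genes and TE subfamilies together, filtered on low counts and tested with edgeR 4.0.16 (quasi-likelihood, Benjamini-Hochberg) in R 4.3.3, genotype as the only term. Two-sided tests were called at an adjusted p under 0.01. KO spermatocytes and KO spermatogonia were compared in a fit over all 14 libraries. Library totals of 44883293 to 53323651 counts set the precision, and 3 counts per library were taken as the floor. P-values measure the spread between these libraries, which may be partly technical.

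Named genes were landmarks of each stage and list, plus the largest changes outside the lists. The genes, lists and tests were chosen with earlier results of these data known. The lists of stromal matrix, immediate early and X-linked germ cell genes were drawn up after values were seen. Alternatives were DESeq2 1.42.0, other scalings and filters, replicates 1 and 4 summed, the replicate number as a block, an adjusted p under 0.05 and each library left out. The procedure was tested on simulated data.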

Additional observations from a re-analysis of the deposited data

Results flagged for a closer look

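Of 274 groups of 4 libraries tested with Dixon's ratio, 30 held a library far from the other 3, and chance gives about 1 in 20. WT replicate 3 was that library in 21 of the 30.

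WT replicate 3 was the highest WT library for Dmc1 (36.9 CPM), Zbtb16 (11.8), Ccnd2 (9.03), Sycp1 (762), Cdkn1a (4.87), Zfy1 (6.77), Zfy2 (7.42), Scml2 (75.1), Sox9 (7.90) and Gata4 (10.8). It was also the highest for the summed levels of X-linked genes (5627 CPM), Y-linked genes (126.1 CPM), Sertoli cell markers (96.91 CPM) and immediate early genes (131.8 CPM), and in its mitochondrial share (2.228%). Among TE subfamilies it was the highest for L1Md_A (304 CPM), MMERVK10C-int (363), MERVL-int (40.6) and RLTR10B2 (40.1). It was the lowest WT library for the sums of the piRNA pathway (8703 CPM) and of telomere attachment genes (838.2 CPM).

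KO replicate 3 was the highest KO library for Zbtb16 (45.5 CPM) and for the spermatid genes Acrv1 (0.134), Prm1 (1.75) and Tnp1 (1.49). KO replicate 2 was the highest for Acta2 (75 CPM), a smooth muscle actin gene, and Pecam1 (14), an endothelial gene, and the lowest for MERVL-int (48.3) and MT2_Mm (18.7). WT replicate 2 was the lowest for Gfra1 (3.41 CPM).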

How the results depend on the processing

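The number of genes called was 12885, and 8758 to 17042 over the alternatives. It was 10738 to 14117 with a library left out. TE subfamilies called numbered 239, 116 with replicates 1 and 4 summed, 395 at an adjusted p under 0.05, and 154 to 279 with a library left out. Between KO spermatocytes and KO spermatogonia 742 genes were called, and 112 to 1005 with a library left out. Among spermatocytes the replicate numbers did not pair KO with WT, since deviations of same-numbered libraries correlated at -0.0373 to 0.184. Whether they pair spermatocytes with spermatogonia was not checked. In spermatogonia, 1 library of each genotype carries another number in its count column than in its title, and the block used the title. With the replicate number as a block, 11439 genes, 190 TE subfamilies and 224 genes of the KO spermatocyte and spermatogonia comparison were called. In that last comparison none of Adam2, Hormad1, Sycp2, Cntd1, Kctd19, Brdt and Trp63 passed under the block (edgeR adjusted p 0.0118 to 0.119), nor did L1Md_T (0.0396) or L1Md_A (0.0187). The macrophage markers Adgre1, Lyz2 and Cd68 and the Leydig cell markers Cyp17a1, Cyp11a1 and Insl3 lost their calls as well, and Csf1r, C1qa and Cd74 kept theirs.

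Among named genes, those that changed sign were ones that had not passed. Gfra1 was at 0.56 with library totals, 0.06 with replicates 1 and 4 summed and 0.08 without KO replicate 4, with -0.78 to 0.08 over left-out libraries. Sycp3 was at 0.63 with library totals, 0.04 with a mean count of at least 50, 0.02 without KO replicate 1, 0.18 without KO replicate 2 and 0.17 without WT replicate 3, and at -0.21 without KO replicate 3. Mybl1 was at 0.11 with library totals. Ddx58 was at -0.06 with replicates 1 and 4 summed, -0.13 with the replicate block, -0.06 without KO replicate 1 and -0.16 without KO replicate 4, and at 0.52 without KO replicate 3. The cause was not tested. At this depth 3 of 18 round spermatid genes and 0 of 12 elongating spermatid genes were at or under the floor in KO.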

Other observations

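Genes of the stromal matrix and immediate early genes were drawn up as lists after values were seen, and get no test as lists. All 10 stromal matrix genes rose (median log2 difference 6.11), with sums of 9149, 6946, 951.6 and 8112 CPM in KO and 113 to 232.6 CPM in WT. All 12 immediate early genes, which are induced quickly by growth signals and by tissue handling, rose (median 4.96), with sums of 5745, 1190, 771.9 and 4432 CPM in KO and 82.66 to 131.8 CPM in WT. In both lists replicate 3 was the lowest KO library and replicate 1 the highest.

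Of 103 snoRNA genes tested, 39 rose and 3 fell (median 1.89), and of 237 miRNA genes 31 rose and 71 fell. Over all genes 28.0% rose and 30.7% fell, and the share of miRNA genes that fell was near the latter. The libraries were of poly(A) RNA, so these counts do not measure the mature small RNAs. Of 13 protein-coding genes of the mitochondrial genome 11 rose and none fell (median 1.06).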
